A study of Homo sapiens with 3 samples.

Results

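The genes described here build the kinetochore, the protein assembly that ties each chromosome to spindle microtubules, and run the spindle checkpoint, which holds a cell in mitosis until every chromosome is attached. They were chosen by symbol, when earlier results of these data were already known. Every symbol of CENP followed by letters was taken, other than the centriole gene CENPJ, together with 23 named subunits and checkpoint proteins. This gave 43 of the 14949 genes in the table, of which 40 had the plain symbol and 3 (CENPO, CENPS and DSN1) carried their gene identifier after the symbol and were counted by their first word.

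The cells were MIAPaCa-2, an established human pancreatic cancer line grown in DMEM with serum. One group carried a control short hairpin and had no treatment (sh-CTL), another carried a hairpin against METTL3, also untreated (sh-METTL3), and the other carried the control hairpin and was given 80 nM NMS-P937, a PLK1 inhibitor, during 24 h (sh-CTL + PLK1i, written PLK1i from here on). METTL3 is the enzyme that places N6-methyladenosine on RNA, and PLK1 encodes a mitotic kinase that is recruited to kinetochores. Each group had 1 library, no vehicle was recorded for the untreated cells, and sh-CTL is the reference of both comparisons, so every difference below lies between 2 libraries and has no replicate check. Where 3 values are given in a row, they are those of sh-CTL, sh-METTL3 and PLK1i in this order.

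The kinetochore is built in layers. Nucleosomes with the histone variant CENP-A mark the centromere, the constitutive centromere-associated network (CCAN) sits on them through the cell cycle, and the KMN network (KNL1, the MIS12 complex and the NDC80 complex) joins this base to microtubules, helped by the SKA complex. At unattached kinetochores a fibrous corona forms, and the kinases TTK and BUB1 start the checkpoint signal that MAD1L1, MAD2L1, BUB1B and BUB3 turn into an inhibitor of the anaphase-promoting complex. Many of these genes are transcribed mainly from late S phase to mitosis, and in bulk RNA fewer cells of a type and less RNA per cell cannot be told apart.

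The listed genes held 37449329, 46944898 and 47727518 reads in the libraries. METTL3 stood at 41.9% of its sh-CTL level in the library labelled sh-METTL3, and PLK1 at 64.9%; in PLK1i they stood at 98.7% and 106%. Of 12 cell type markers, 7 were listed, among them the epithelial keratins KRT8, KRT18 and KRT19 and the mesenchymal VIM and ZEB1, while the epithelial EPCAM and CDH1, the blood marker PTPRC, the endothelial PECAM1 and the fibroblast marker DCN were not in the table. The fibroblast collagen COL1A1 had 34, 6 and 36 reads, and COL1A2 had 44101, 44201 and 44493.

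Kinetochore and checkpoint transcripts were well measured and, as a group, near the same level in the 3 libraries. They took 0.339%, 0.350% and 0.333% of all reads. Mean normalized counts (reads divided by the authors' size factor for the library) ran from 616 to 22504, with a median of 2777, so all 43 stood above a mean of 500. The median log2 difference of the 43 genes was 0.02 in sh-METTL3 and 0.00 in PLK1i, against 0.00 in both comparisons over all listed genes. In sh-METTL3 25 were higher and 18 lower than in sh-CTL, and in PLK1i 22 were higher and 21 lower. The higher genes were thus 58.1% and 51.2% of the group, against 50.2% and 50.5% of all listed genes. Of the listed genes at a mean of 500 or more, 46.8% and 51.9% were higher.

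**Figure D1:**
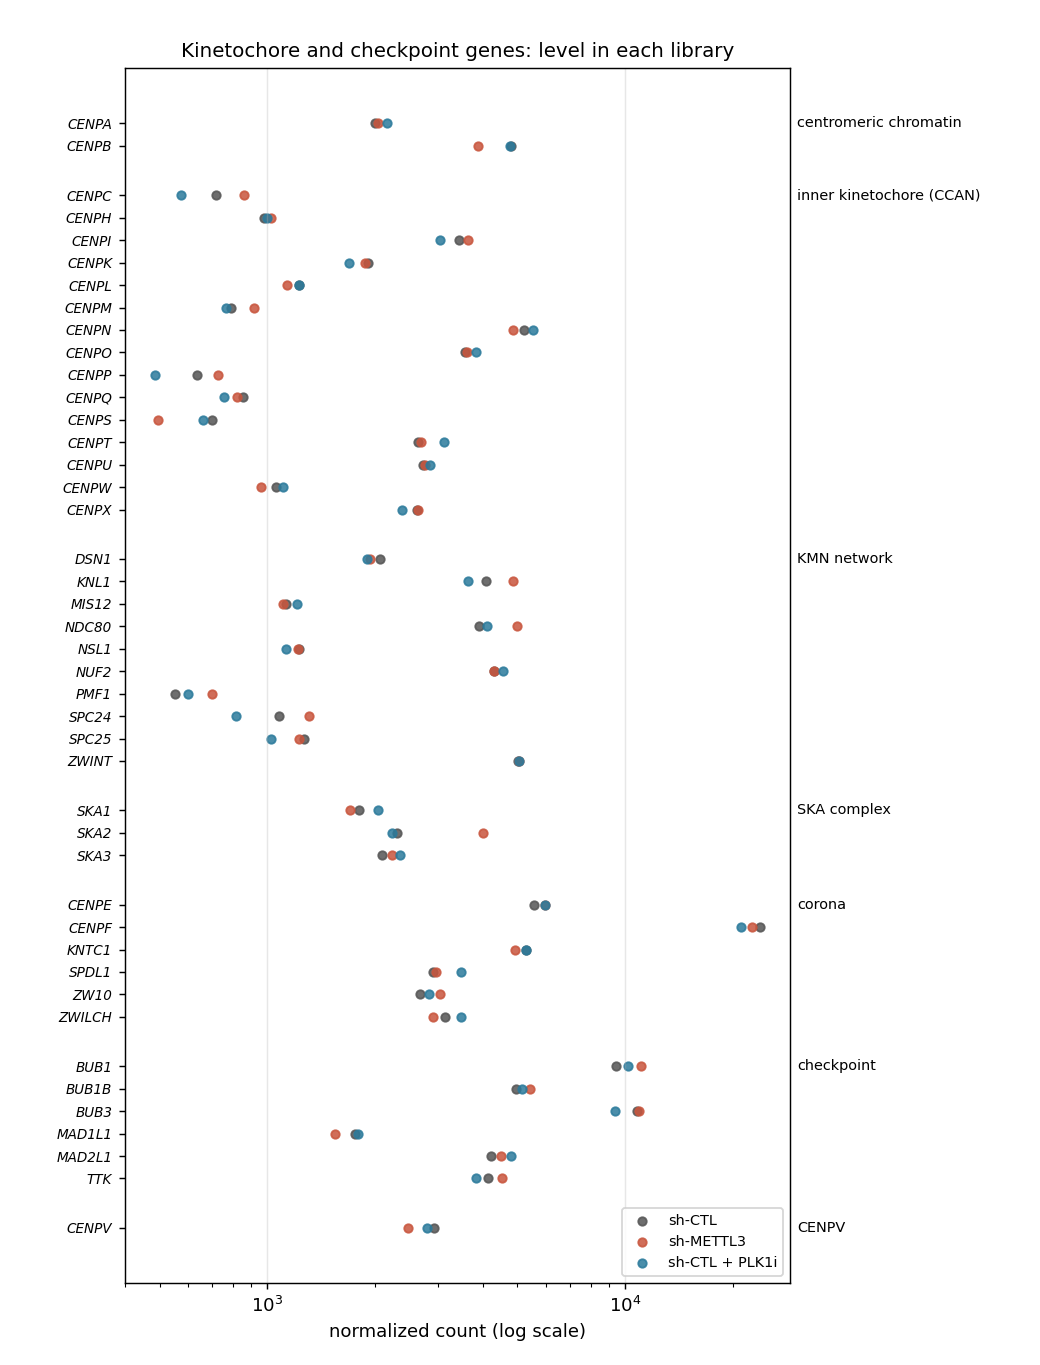
Normalized count of each of the 43 genes (horizontal log axis) in the 3 libraries, grouped by complex, with 1 point per library. For most genes the 3 points nearly coincide, and SKA2 in sh-METTL3, at 4011 against 2301 in sh-CTL, stands clear of its other libraries.

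No gene of the group differed 2-fold from sh-CTL in either comparison, where 6.37% of all listed genes did so in sh-METTL3 and 2.52% in PLK1i. At a log2 difference of at least 0.32 in size, the threshold used here, 3 of 43 (6.98%) were higher in sh-METTL3: SKA2, NDC80 and PMF1. The background for this was 15.8% of all listed genes and 6.9% of the 9074 listed genes at a mean of 500 or more, which have levels like those of the group. CENPS alone (2.33%) was lower by as much, against 14.5% of all listed genes and 9.35% of those at 500 or more. In PLK1i no member was higher by as much, against 10.2% and 3.7% of these genes in the same order, and 3 (6.98%) were lower, SPC24, CENPP and CENPC, against 11.5% and 4.32%. These shares are close to the background of well-expressed genes or below it, other than that of the lower genes after the inhibitor, which is 3 genes.

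The spread within the group was also modest. The SD of the log2 differences over the 43 genes was 0.21 in sh-METTL3, against 0.32 over the genes at a mean of 500 or more, and 0.16 against 0.19 in PLK1i. In sh-METTL3 21 of 43 lay within 0.1 of 0 on the log2 scale, or 48.8% against 38.8% of the genes at a mean of 500 or more, and in PLK1i 18 did, or 41.9% against 47.6%. At this depth small differences exceed counting error. The 95% counting interval, an exact interval of the ratio of reads between 2 libraries that covers counting error only, left out 0 for 25 of 43 genes in sh-METTL3 (15 higher and 10 lower) and for 27 in PLK1i (14 higher and 13 lower). Among the genes at a mean of 500 or more it did so for 65.3% and 57.7%, so an interval that leaves out 0 is common in this table.

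**Figure D2:**
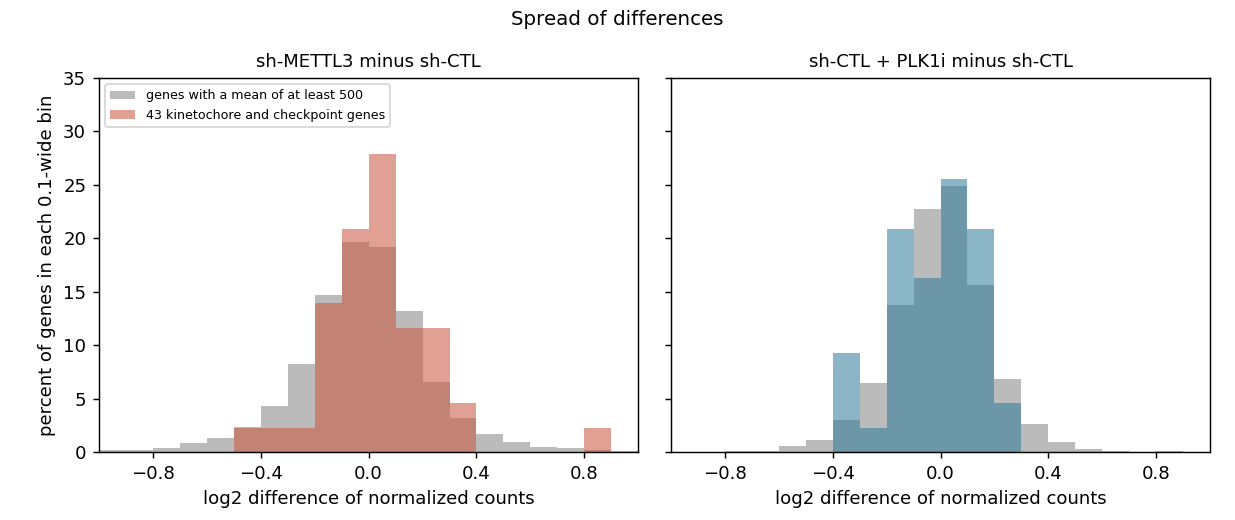
Share of genes (vertical axis, percent) in bins of the log2 difference from sh-CTL that are 0.1 wide, for the 43 kinetochore and checkpoint genes (coloured) and the 9074 genes at a mean of 500 or more (grey), in each comparison. Both sets centre near 0, SKA2 is the single coloured bar on the far right of the sh-METTL3 panel, and 126 and 10 grey genes lie outside the axis.

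**Figure D3:**
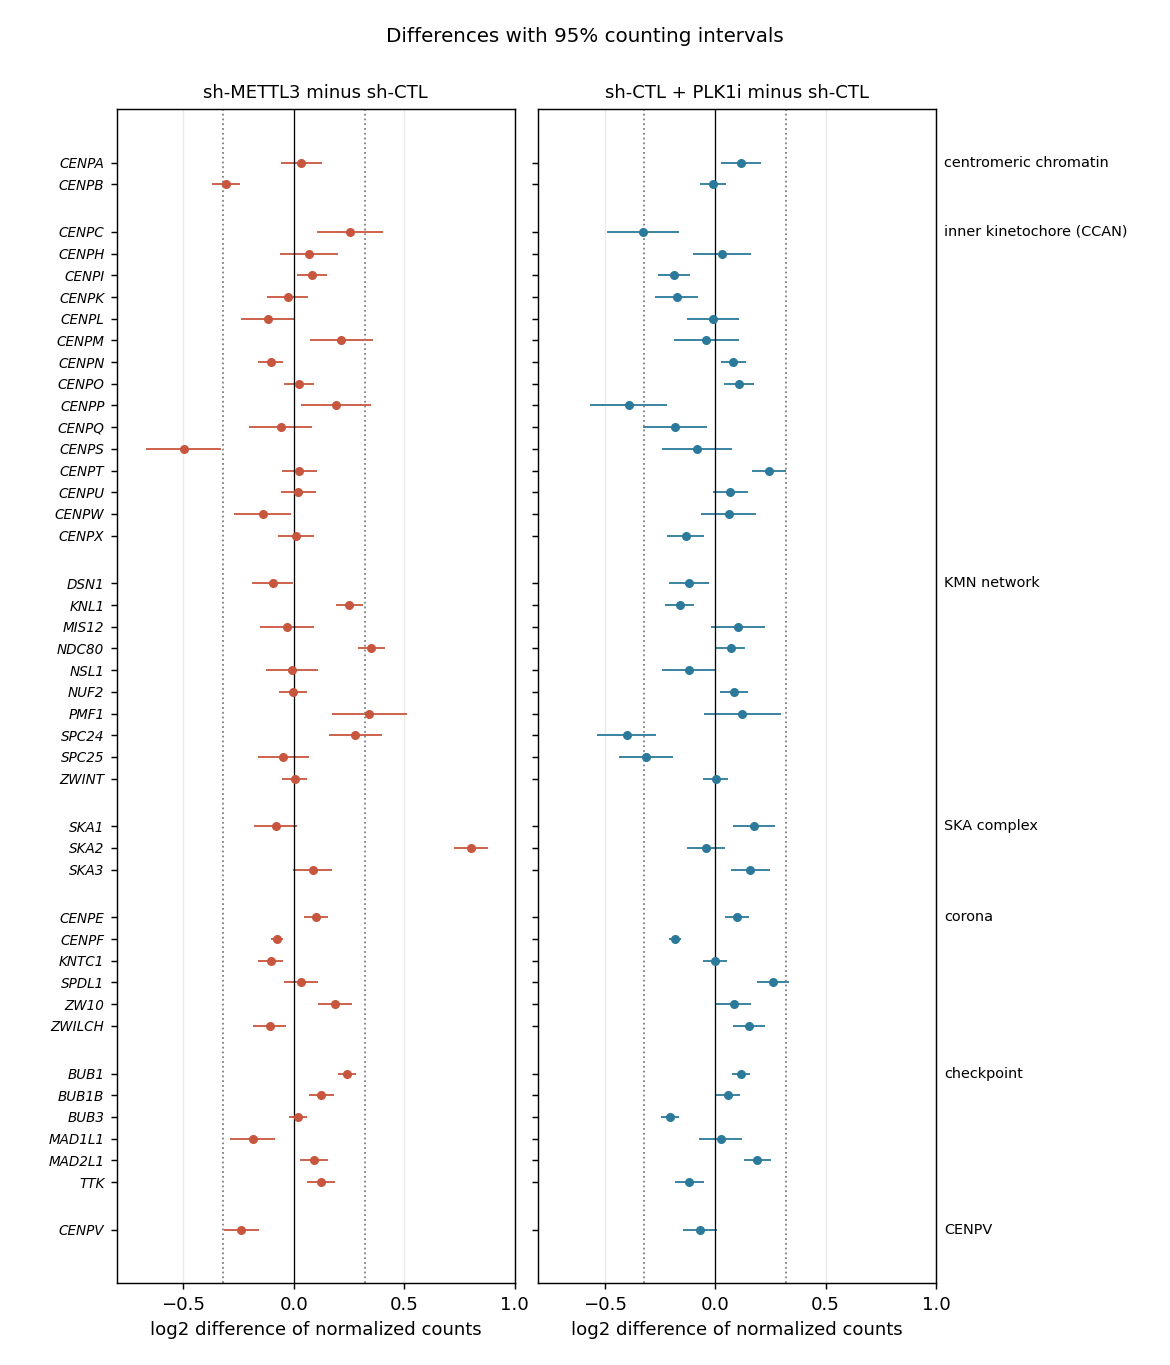
Log2 difference of normalized counts from sh-CTL (horizontal axis) for each gene, by complex, in sh-METTL3 and in PLK1i. Bars are 95% counting intervals and dotted lines mark the threshold of 0.32, which SKA2, NDC80, PMF1 and CENPS passed in sh-METTL3 and SPC24, CENPP and CENPC in PLK1i.

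Promoters were read for letter patterns of cell cycle genes. The CHR (cell cycle genes homology region) is a short promoter element through which a repressor and an activator complex set the timing of G2 and M phase genes, and CCAAT boxes, bound by NF-Y, often stand upstream of it. The letters searched were TTTGAA or TTCGAA on either strand, with overlapping matches counted once, in RefSeq windows of 250 bases before to 50 after the gene start (GRCh38.p14). A window was found for 36 of the 43 genes, and none for CENPH, CENPL, CENPM, KNL1, KNTC1, BUB3 and TTK. CHR letters stood in 17 of 36 (47.2%), against 15.2% of the 10379 listed genes with a window and 16.4% of all 35116 windows. CCAAT on either strand stood in 21 of 36 (58.3%), against 43.1% of listed genes and 34.6% of all windows, and the E2F letters TTTCCCGC, TTTGGCGC, TTTCGCGC or TTTGCCGC in 4 of 36 (11.1%), against 6.75% and 3.31%. A match of letters is a description of the window and not a measured binding site.

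At the base of the kinetochore, CENPA, the centromeric histone, was nearly level. It had 1711, 2204 and 2348 reads, or normalized counts of 1995, 2043 and 2162. These are log2 differences from sh-CTL of 0.03 (95% counting interval -0.06 to 0.13) in sh-METTL3 and of 0.12 (0.03 to 0.21) in PLK1i, and where 2 differences follow each other below they stand in this order. CENPA shares exonic bases with SLC35F6 on its own strand, so its reads are uncertain. CENPB, which binds a motif in centromeric satellite DNA, had normalized counts of 4788, 3868 and 4760. It was lower in sh-METTL3 by a log2 difference of -0.31 (-0.37 to -0.25), just short of the threshold, and level in PLK1i at -0.01. The 24 listed genes nearest to CENPB on chromosome 20 had a median difference of -0.14 in sh-METTL3.

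The 15 CCAN genes among the 43 had a median difference of 0.02 in sh-METTL3 and -0.04 in PLK1i, with 9 and 6 of them higher than in sh-CTL. CENPC, which links CENP-A nucleosomes to the MIS12 complex, lay on opposite sides of sh-CTL in the other libraries. It had 617, 926 and 623 reads, or normalized counts of 719, 858 and 574. The inhibitor library was the lowest, with a log2 difference of -0.33 (-0.49 to -0.16), and the knockdown library the highest, at 0.25 (0.11 to 0.40). Set directly against each other, sh-METTL3 lay above PLK1i by 0.58 (0.43 to 0.73). CENPC is 1 of 3 genes with CHR letters that lay below sh-CTL in PLK1i, so its match is shown, in a run of 30 bases of the minus strand at chr4:67545576-67545605. The match, in capitals, starts at -90 from the gene start, and TTCAAA is TTTGAA read on the other strand.
CENPC: tgtgtctccgggTTCAAAcccaggcacagg

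CENPP, of the CENPO, CENPP, CENPQ and CENPU subcomplex that helps bring PLK1 to the inner kinetochore, had a like pattern. It had 546, 784 and 527 reads, and normalized counts of 637, 727 and 485. The log2 differences were 0.19 (0.03 to 0.35) and -0.39 (-0.57 to -0.22). The rest of the subcomplex stood nearer to sh-CTL in PLK1i, where CENPQ stood at -0.18, CENPU at 0.07 and CENPO at 0.11. ITGB3BP, which encodes its further subunit CENP-R and was outside the symbol rule, stood at -0.15 (-0.26 to -0.03) there. CENPP shares exonic bases with IPPK on the other strand, and IPPK had differences of -0.16 and 0.10, opposite in sign to those of CENPP. The 24 neighbours of CENPP on chromosome 9 had a median of 0.25 in sh-METTL3 and 0.03 in PLK1i, and less these CENPP was at -0.06 and -0.42.

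CENPS, a histone-fold protein that pairs with CENPX and joins CENPT and CENPW, was the lowest member in sh-METTL3. The reads were 599, 533 and 716, and the normalized counts 698, 494 and 659, which put sh-METTL3 at 70.8% of the control, a log2 difference of -0.50 (-0.67 to -0.33). After the inhibitor the difference was -0.08 (-0.24 to 0.08). The gene lies on GRCh37 chromosome 1, 10490490 to 10502865, on the plus strand, and shares exons with the readthrough gene CENPS-CORT, which had 59, 89 and 61 reads, so the split of reads between them is uncertain. With the reads of both genes added, the difference in sh-METTL3 was -0.41 (-0.57 to -0.25). The 24 nearest listed genes had a median of 0.03.

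The partners of CENPS in the same histone-fold complex stood nearer to sh-CTL. CENPX stood at 0.01 (-0.07 to 0.09) and CENPW at -0.14 (-0.27 to -0.01) in sh-METTL3. CENPT, which anchors NDC80 complexes to the CCAN, had 2259, 2893 and 3391 reads and normalized counts of 2634, 2682 and 3122, with differences of 0.03 (-0.05 to 0.11) and 0.24 (0.17 to 0.32). CENPT thus differed upward in the inhibitor library while CENPC, the other link to the outer kinetochore, differed downward. Exons of CENPT overlap those of 3 listed genes on the other strand, and whether the counting used strand is not given in the sources used here.

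Of the remaining CCAN genes, CENPH, CENPI, CENPK and CENPM form a structural subcomplex, and CENPN and CENPL bind the CENP-A nucleosome. In sh-METTL3 their log2 differences ran from -0.12 for CENPL to 0.21 for CENPM. In PLK1i they ran from -0.18 for CENPI to 0.08 for CENPN, with CENPK at -0.17. The counting intervals of CENPI, CENPK and CENPN left out 0 in PLK1i and those of CENPH, CENPL and CENPM did not. CENPN shares exonic bases with the listed gene ENSG00000261061 on its own strand, so its reads are uncertain.

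In the KMN network the median difference was 0.00 in sh-METTL3 and -0.06 in PLK1i, with 5 of 10 genes higher in each. KNL1, the scaffold that carries the docking sites of BUB1 and BUB3, had 3492, 5234 and 3958 reads, or normalized counts of 4072, 4851 and 3644. It was highest in sh-METTL3, at 0.25 (0.19 to 0.31), and lowest after the inhibitor, at -0.16 (-0.23 to -0.09). Its partner ZWINT was the steadiest member, with a difference of 0.00 in both comparisons and counting intervals of -0.05 to 0.06 and -0.06 to 0.06.

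The MIS12 complex, the hub between CCAN and microtubule binders, has 4 subunits, MIS12, DSN1, NSL1 and PMF1. MIS12 had 967, 1191 and 1315 reads and normalized counts of 1128, 1104 and 1211, with differences of -0.03 (-0.15 to 0.09) and 0.10 (-0.02 to 0.22), both within counting error. DSN1 and NSL1 were at -0.09 and -0.01 in sh-METTL3 and both at -0.12 in PLK1i. PMF1 was the exception in sh-METTL3, with 472, 753 and 651 reads, normalized counts of 550, 698 and 599, and a difference of 0.34 (0.17 to 0.51). PMF1 (chromosome 1, 156182784 to 156209833, plus strand) shares exons with the readthrough gene PMF1-BGLAP, which had 95, 67 and 69 reads. With both added the difference was below the threshold, at 0.20 (0.04 to 0.36).

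The NDC80 complex is a rod whose microtubule-binding end is formed by NDC80 and NUF2 and whose anchoring end is formed by SPC24 and SPC25. The ends differed in PLK1i. NDC80 had 3350, 5379 and 4455 reads, with normalized counts of 3906, 4986 and 4101. NUF2 had 3687, 4633 and 4955 reads and normalized counts of 4299, 4294 and 4562. In the inhibitor library both were slightly higher than in sh-CTL, by 0.07 (0.01 to 0.14) and 0.09 (0.02 to 0.15) on the log2 scale.

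The anchoring end was lower there. SPC24 had 925, 1413 and 888 reads and normalized counts of 1079, 1310 and 818, and SPC25 had 1088, 1325 and 1110 reads and normalized counts of 1269, 1228 and 1022. After the inhibitor SPC24 stood at 75.8% and SPC25 at 80.6% of sh-CTL, log2 differences of -0.40 (-0.53 to -0.27) and -0.31 (-0.43 to -0.19). SPC24 was the lowest of the 43 genes in PLK1i, and SPC25 lay just short of the threshold. SPC24 was higher in sh-METTL3, at 0.28 (0.16 to 0.40), so that the METTL3 and inhibitor libraries lay 0.68 (0.56 to 0.80) apart, while SPC25 in sh-METTL3 was within counting error of sh-CTL at -0.05 (-0.16 to 0.07).

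Per kilobase of the canonical transcript (RPKM), NDC80 was 42.1 and SPC24 10.8 in sh-CTL, a ratio of 3.90. The ratio was 4.10 in sh-METTL3 and 5.40 in PLK1i. For NUF2 over SPC25 the ratios of these levels were 2.32, 2.39 and 3.05. Levels of unlike genes rest on 1 annotated transcript each, so the ratios are read between libraries and not as protein stoichiometry. Beside these values, the promoter windows of NDC80, NUF2 and SPC25 hold CHR letters near the start, and that of SPC24 holds none. They are printed because the ends of the rod differed in PLK1i while 3 of its 4 genes hold the letters. NDC80 is on the plus strand at chr18:2571542-2571571, NUF2 on the plus strand at chr1:163321958-163321987 and SPC25 on the minus strand at chr2:168890416-168890445, each read 5′ to 3′ along the gene with the matches in capitals, 2 adjoining ones in NDC80 and the match nearest the start in SPC25.
NDC80: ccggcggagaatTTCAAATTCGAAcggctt
NUF2: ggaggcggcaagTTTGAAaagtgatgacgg
SPC25: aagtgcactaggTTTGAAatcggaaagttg

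NDC80 was 1.28-fold higher in sh-METTL3, a log2 difference of 0.35 (0.29 to 0.41), and its surroundings stood nearly as high. The gene lies on GRCh37 chromosome 18, 2571556 to 2616634, and the 24 listed genes nearest to it had a median difference of 0.31 in sh-METTL3 and 0.02 in PLK1i. Next to it METTL4 stood at 0.40 and SMCHD1 at 0.30 in sh-METTL3. Less the median of its neighbours, NDC80 was at 0.04. NUF2, on chromosome 1, had neighbours at 0.05 and was itself at 0.00.

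The SKA complex, which stabilises the grip of the kinetochore on microtubule ends, held the largest difference of the group. SKA2 had 1973, 4327 and 2427 reads, or normalized counts of 2301, 4011 and 2234. The METTL3 library was thus 1.74-fold above sh-CTL, a log2 difference of 0.80 (0.72 to 0.88), while the inhibitor library was level with it at -0.04 (-0.13 to 0.04). The next highest member in sh-METTL3 was NDC80 at 0.35.

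SKA2 lies on the minus strand of GRCh37 chromosome 17, 57187218 to 57232621. The genes on either side did not share its difference. PRR11, which starts beside SKA2 and is read the other way, had 7322, 9131 and 8785 reads, with a difference in sh-METTL3 of -0.01 (-0.06 to 0.03), and TRIM37 on the other side stood at 0.10. The median of the 24 nearest listed genes was 0.03, although PPM1E at 0.73 and YPEL2 at 0.92 were among them. No exon of SKA2 overlaps another listed gene.

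**Figure D4:**
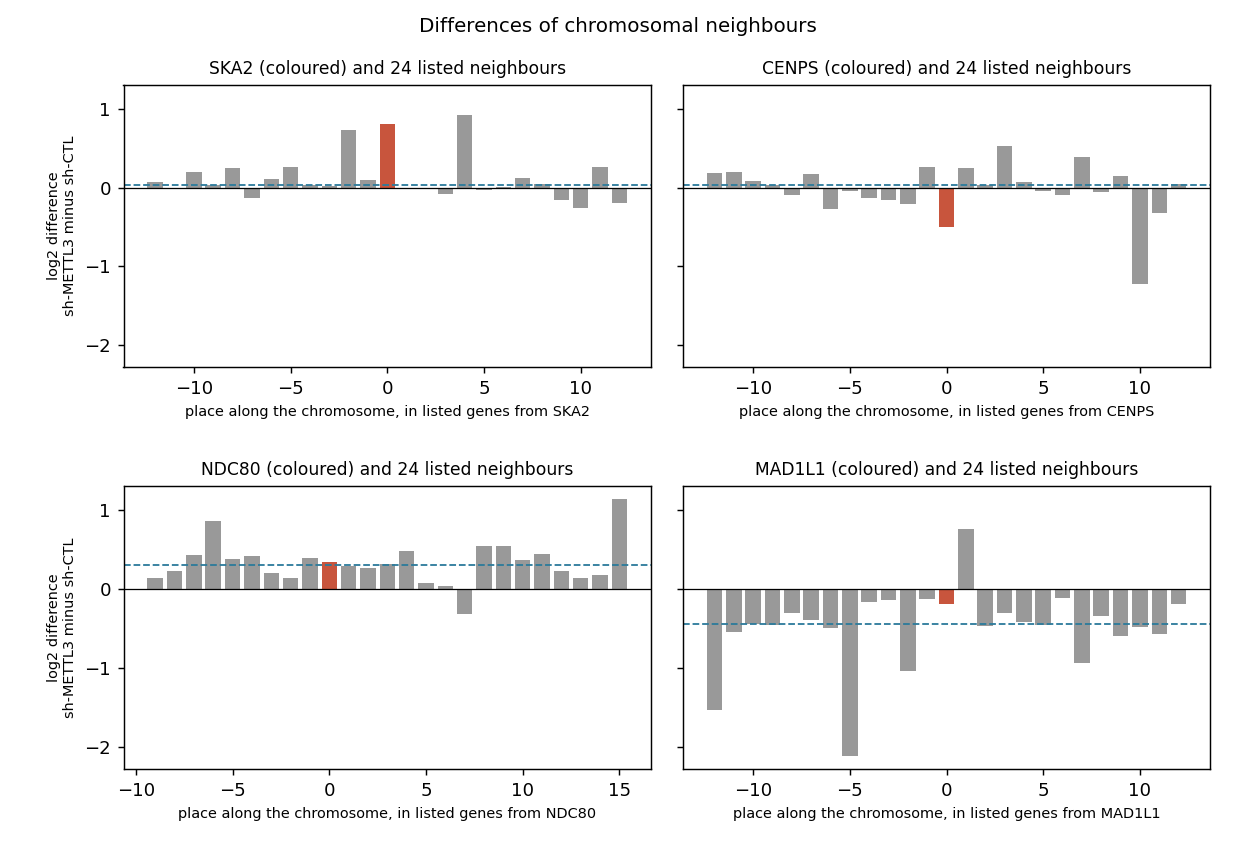
Log2 difference in sh-METTL3 (vertical axis) of SKA2, CENPS, NDC80 and MAD1L1 (coloured bar at 0) and of their 24 nearest listed genes at a mean of 50 or more, in chromosomal order, with the neighbours' median as a dashed line. The medians are 0.03, 0.03, 0.31 and -0.44, so NDC80 lies at the level of its neighbours and SKA2 and CENPS stand apart from theirs.

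The other SKA subunits stood near sh-CTL in sh-METTL3. SKA1 had 1547, 1839 and 2214 reads and normalized counts of 1804, 1705 and 2038, with differences of -0.08 (-0.18 to 0.02) and 0.18 (0.08 to 0.27). The 24 neighbours of SKA1 on chromosome 18 had a median of -0.26 in sh-METTL3, and less that median SKA1 was at 0.18 there. SKA3 had normalized counts of 2097, 2226 and 2340, with differences of 0.09 (0.00 to 0.18) and 0.16 (0.07 to 0.25). The ratio of SKA2 to SKA1 per kilobase was 1.29, 2.39 and 1.11, and that of SKA3 to SKA1 was 1.15, 1.30 and 1.14.

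The promoter windows of the 3 subunits differ in the letters searched. SKA1 (plus strand, chr18:50375066-50375095) and SKA3 (minus strand, chr13:21176538-21176567) hold CHR letters within 50 bases of the start, whereas the SKA2 window holds none of these but 5 CCAAT boxes, a number that only CENPX among the 36 genes equals. The windows below show the CHR matches of SKA1 and SKA3 and, for SKA2, the CCAAT boxes nearest to its start (minus strand, chr17:59155222-59155251 and chr17:59155254-59155283), in capitals.
SKA1: ggcgcggcgggcggTTTGAAttttgcttac
SKA3: ccggcgccgagaTTCAAActagtggcggga
SKA2, nearest box: agtgacagctgtCCAATggaggccctccgt
SKA2, next box: ggaacggaggagCCAATgagtgcgagatgt

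Corona genes differed little in sh-METTL3, with a median of -0.02 over 6 genes. In PLK1i 4 of 6 (66.7%) were higher, against 51.9% of the genes at a mean of 500 or more, and the median was 0.09. CENPE, the kinesin that carries chromosomes along microtubules, had 4776, 6447 and 6481 reads, and normalized counts of 5569, 5976 and 5966. It stood at 0.10 (0.05 to 0.16) and 0.10 (0.05 to 0.15), and in sh-METTL3 less the median of its 24 neighbours at -0.01. CENPF, a large coiled-coil protein and the most abundant member by reads, had 20442, 24422 and 22852 reads and normalized counts of 23837, 22637 and 21038. It was lower in both libraries, by a log2 difference of -0.07 (-0.10 to -0.05) and of -0.18 (-0.21 to -0.15) respectively.

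KNTC1, ZW10 and ZWILCH form the RZZ complex, the building block of the corona, and SPDL1 (Spindly) ties it to dynein. ZW10 had 2290, 3280 and 3074 reads and normalized counts of 2670, 3040 and 2830. It stood at 0.19 (0.11 to 0.26) in sh-METTL3, while KNTC1 and ZWILCH stood at -0.10 and -0.11 there. The 24 neighbours of KNTC1 on chromosome 12 had a median of -0.18 in sh-METTL3, and less that median KNTC1 was at 0.07. In PLK1i the 3 stood at 0.08 for ZW10, 0.00 for KNTC1 and 0.15 for ZWILCH. Exons of ZWILCH overlap those of LCTL and RPL4 on the other strand, so its reads are uncertain if the counting ignored strand. SPDL1 had the largest upward difference of the 43 genes after the inhibitor. It had 2483, 3193 and 3770 reads and normalized counts of 2895, 2960 and 3471, or 120% of sh-CTL in the inhibitor library, with log2 differences of 0.03 (-0.04 to 0.11) and 0.26 (0.19 to 0.34). CHR letters stand in the windows of SPDL1 (plus strand, chr5:169583741-169583770) and of CENPF (plus strand, chr1:214603215-214603244), which lay at opposite ends of the corona genes after the inhibitor.
SPDL1: gcgggaactgcaTTCAAAtatcccaggcgc
CENPF: ccggtggcggctgcgggcagTTTGAAttag

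Among the checkpoint genes 5 of 6 (83.3%) were higher in sh-METTL3, with a median of 0.11. In PLK1i 4 of 6 (66.7%) were higher, with a median of 0.04, and none reached the threshold in either comparison. Of the genes at a mean of 500 or more 46.8% and 51.9% were higher, in the same order. TTK, the kinase that starts the signal, had 3556, 4878 and 4156 reads, or normalized counts of 4147, 4521 and 3826. It was higher in sh-METTL3, at 0.12 (0.06 to 0.19), and lower in PLK1i, at -0.12 (-0.18 to -0.05). The 24 neighbours of TTK on chromosome 6 had a median of -0.16 in PLK1i, and less that median TTK was at 0.05. BUB1, the kinase that recruits the other checkpoint proteins to KNL1, had 8061, 11977 and 11078 reads and normalized counts of 9400, 11101 and 10199. BUB1 had the largest upward difference of the 6 genes in sh-METTL3, 0.24 (0.20 to 0.28), with 0.12 (0.08 to 0.16) in PLK1i.

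BUB1B, which encodes BubR1 of the mitotic checkpoint complex, had 4247, 5829 and 5593 reads and normalized counts of 4952, 5403 and 5149, with differences of 0.13 (0.07 to 0.18) and 0.06 (0.00 to 0.11). The 24 neighbours of BUB1B on chromosome 15 had medians of 0.12 and -0.08, and less these BUB1B was at 0.01 and 0.14. BUB3, which binds both BUB1 and BubR1, had 9255, 11805 and 10180 reads and normalized counts of 10792, 10942 and 9372. BUB3 was level in sh-METTL3 at 0.02 (-0.02 to 0.06) and was the lowest checkpoint gene after the inhibitor, at -0.20 (-0.24 to -0.16). The per-kilobase ratio of BUB3 to BUB1 was 0.561, 0.481 and 0.449. It rests on canonical transcripts of 7703 bases for BUB3 and 3762 for BUB1. On these lengths BUB1 exceeded BUB3 in all 3 libraries, although in sh-CTL BUB3 had more reads, 9255 against 8061. BUB1B shares exonic bases with PAK6 on its own strand, so its reads are uncertain.

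MAD1L1 and MAD2L1 encode the pair that catalyses formation of the inhibitor at unattached kinetochores. MAD2L1 had 3607, 4838 and 5215 reads and normalized counts of 4206, 4484 and 4801, with differences of 0.09 (0.03 to 0.16) and 0.19 (0.13 to 0.25). MAD1L1 had 1510, 1670 and 1947 reads and normalized counts of 1761, 1548 and 1792, and was the only checkpoint gene lower in sh-METTL3, at -0.19 (-0.29 to -0.08), with 0.03 (-0.07 to 0.12) in PLK1i. MAD1L1 lies at the end of chromosome 7, 1855429 to 2272878, where its 24 neighbours had a median of -0.44 in sh-METTL3 and -0.07 in PLK1i. Relative to those neighbours it was 0.26 higher, and it shares exonic bases with the listed gene ENSG00000286192 on its own strand. TTK and BUB3, the checkpoint genes below sh-CTL in PLK1i, had no promoter window, so their letters are unknown, and the window of MAD1L1 holds no CHR letters. CHR matches are shown for BUB1 (minus strand, chr2:110678045-110678074), BUB1B (plus strand, chr15:40161034-40161063) and MAD2L1 (minus strand, chr4:120066807-120066836), the 3 checkpoint genes whose values were above sh-CTL in both libraries and whose windows hold these letters.
BUB1: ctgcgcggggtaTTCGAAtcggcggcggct
BUB1B: gggaccgttaaaTTTGAAacttggcggcta
MAD2L1: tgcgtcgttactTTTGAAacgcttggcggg

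CENPV, a CENP-named gene outside these complexes, had normalized counts of 2919, 2477 and 2785 and had differences of -0.24 (-0.32 to -0.16) and -0.07 (-0.14 to 0.01).

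Per kilobase of the canonical transcript, levels within each complex spanned a wide range in sh-CTL. In the CCAN they ran from 78.2 RPKM for CENPX down to 2.41 for CENPC and 1.76 for CENPP, and in the KMN network from 62.0 for ZWINT to 2.13 for NSL1. Corona genes ran from 53.0 for CENPF to 14.9 for CENPE, and checkpoint genes from 57.2 for BUB1 to 15.0 for MAD1L1. NSL1 and CENPP have the long canonical transcripts of 13115 and 8293 bases, so their place at the bottom depends on the transcript taken as their length.

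The differences were also set out by the letters in the promoter window, as a description with no test. In PLK1i 14 of the 17 genes with CHR letters were above sh-CTL, with a median of 0.08, and 7 of the 19 without were, with a median of -0.07. Of the 14, ZWINT at 0.00 fell below sh-CTL under each of the other scalings. ZWINT, BUB1B and CENPW were within counting error of sh-CTL, as were CENPU, MAD1L1, MIS12 and PMF1 of the 7. CENPC, SPC25 and CENPF were the 3 with CHR letters that lay below sh-CTL. The genes with no window are outside this split, their letters are unknown, and most of them lay below sh-CTL. In PLK1i BUB3 stood at -0.20, KNL1 at -0.16, TTK at -0.12, CENPM at -0.04, CENPL at -0.01, KNTC1 at -0.0007 and CENPH at 0.03. In sh-METTL3 the medians were 0.03 with the letters and -0.01 without, with 11 of 17 and 9 of 19 genes above sh-CTL. Over the 10379 listed genes with a window 833 of 1579 (52.7%) with CHR letters and 4490 of 8800 (51.0%) without were above sh-CTL in PLK1i, with medians of 0.01 and 0.00. CCAAT gave no such split of the group, with 12 of 21 genes with it and 9 of 15 without it above sh-CTL in PLK1i and a median of 0.06 in each. Over the listed genes with a window these shares were 50.6% and 51.8%. For the E2F letters 3 of 4 genes with and 18 of 32 without were above sh-CTL in PLK1i, with medians of 0.09 and 0.04, against 48.9% and 51.5% of the listed genes.

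**Figure D5:**
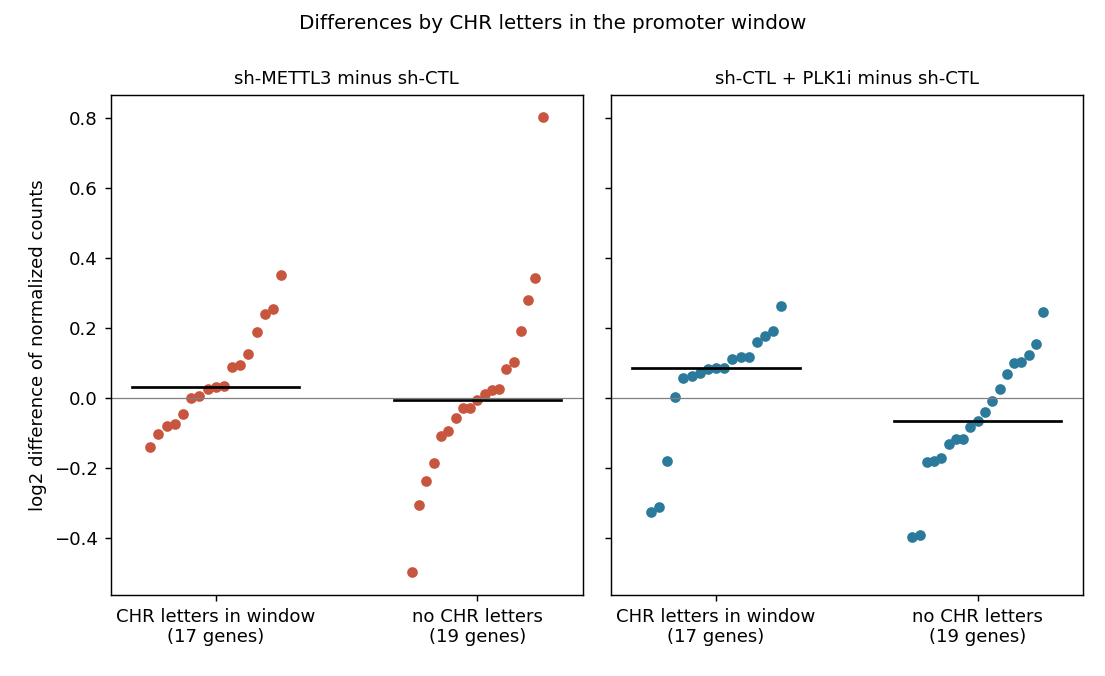
Log2 difference from sh-CTL (vertical axis) of the 36 genes with a promoter window, split by CHR letters in the window (17 with, 19 without), in each comparison. Each point is a gene and lines mark medians, which in PLK1i are 0.08 with and -0.07 without the letters.

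A list of 35 other genes of kinetochore assembly and spindle attachment was also counted, and all 35 were listed. Their median difference was 0.00 in sh-METTL3 and 0.04 in PLK1i. In sh-METTL3 none was past the threshold upward, where 6.9% of the genes at a mean of 500 or more were, and 3 (8.57%) were downward, against 9.35%: PLK1 itself, SGO1, which guards centromeric cohesion, at -0.34, and CLIP1, a microtubule plus-end protein, at -0.33. In PLK1i 3 (8.57%) were past it upward, against 3.7%, which are the CENP-A chaperone HJURP at 0.36, the kinesin KIF18A at 0.42 and KNSTRN, a spindle and kinetochore protein, at 0.41. INCENP, the scaffold of the chromosomal passenger complex, was the 1 gene (2.86%) past it downward, at -0.34, against 4.32%.

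All 7 genes listed under CENP-A loading were above sh-CTL in sh-METTL3, from 0.03 for NPM1 to 0.28 for HJURP. In PLK1i 4 of 7 were above it. The 7 include ITGB3BP, at 0.08 and -0.15, which encodes the CCAN subunit CENP-R. Of the genes at a mean of 500 or more 46.8% were above sh-CTL in sh-METTL3 and 51.9% in PLK1i. In sh-METTL3 4 of the 7 counting intervals (57.1%) left out 0, against 65.3% of those genes. HJURP had 5943, 9082 and 9667 reads, while its cargo CENPA stood at 0.03 and 0.12. Of the 14 microtubule partners 12 (85.7%) were below sh-CTL in sh-METTL3, against 53.2% of the genes at a mean of 500 or more, with a median of -0.05, and 9 (64.3%) were above it in PLK1i, with a median of 0.05. KIF18A, which limits microtubule length at kinetochores, had 2391, 2835 and 4039 reads and was higher after the inhibitor than any of the 43 genes.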

How the data were processed

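The authors deposited 1 table of log2 values for 14949 genes. FastQC 0.11.9, STAR 2.7.10, RSEM 1.3.3 and hg19 are named in the submitters' processing notes, without their settings. The low deposited values equalled log2 of a scaled read count plus 4. Undoing this gave whole reads within 0.1 for 100% of the values under 2000 reads that were checked, and larger values were rounded. Differences are log2(normalized count + 1) with the deposited scaling. Reads give depth, and 95% exact Clopper-Pearson intervals of read ratios compare 2 libraries and cover counting error only. With 1 library per group no test was run. The calculation was tested on simulated data. Positions, exons and canonical lengths came from GENCODE 44 on GRCh37, and promoters from RefSeq on GRCh38.p14. Exons of 6 genes overlap another listed gene on the same strand and of 12 on the other strand. The 12 are CENPL, CENPN, CENPO, CENPP, CENPT, CENPU, CENPV, CENPX, MIS12, NUF2, SPC24 and ZWILCH. The rule named every gene, and gave full values for those past the threshold of 0.32 and for 20 core subunits. Values of other genes, and the promoter sequences shown, were picked after their values were seen. The genes, lists and letters were chosen with earlier results of these data known. Alternatives were other scalings, pseudocounts, filters, thresholds and neighbour correction. Python 3.11.15, pandas 2.3.3, numpy 2.4.6, scipy 1.17.1 and matplotlib 3.10.9 were used.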

Additional observations from a re-analysis of the deposited data

How the results depend on the processing

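With 1 library per group no replicate was left out, and variation between cultures was not measured. No paired analysis was possible because the groups share no replicate. Under the alternatives the median difference of the 43 genes ran from 0.02 to 0.04 in sh-METTL3 and from -0.02 to 0.01 in PLK1i. The 4 genes past the threshold of 0.32 in sh-METTL3 became 2 (SKA2 and NDC80) without genes that overlap another listed gene on the same strand, 2 (SKA2 and CENPS) after the median of 24 neighbours was subtracted, 1 (SKA2) at 1.5-fold and 0 at 2-fold. The 3 genes in PLK1i became 0 at 1.5-fold and 0 at 2-fold, and SPC25 made them 4 under upper-quartile scaling and after neighbour subtraction. Keeping only the 40 genes with a plain symbol, an alternative chosen after seeing the data, gave 3 in each comparison. Of 516 recomputed differences of single genes none reversed among those past the threshold, and 19 left their counting interval, all of them on subtraction of the neighbours' median. That subtraction also turned the sign of 5 of the 25 differences in sh-METTL3 whose interval left out 0 (CENPE from 0.10 to -0.01, CENPI from 0.08 to -0.04, CENPP from 0.19 to -0.06, KNTC1 from -0.10 to 0.07 and MAD1L1 from -0.19 to 0.26) and of 1 of 27 in PLK1i (TTK from -0.12 to 0.05), and the other alternatives turned 0.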
